A study of Mus musculus with 6 samples.

Results

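The NRF2 and thiol antioxidant genes described here are 10 genes, chosen by symbol from the 16244 genes of the deposited expression table: *Nfe2l2*, *Keap1*, *Gclc*, *Gclm*, *Slc7a11*, *Txnrd1*, *Srxn1*, *Prdx1*, *Gpx4* and *Txn1*. All 10 were found and all 10 passed the filter on low values. They were measured by RNA-seq in T helper 17 (Th17) cells, the T cells that make IL-17, in 3 libraries from wild-type (WT) C57BL/6NJ mice and 3 from knockin mice on a C57BL/6 background that carry the N275D change in RORγt, the transcription factor that specifies this lineage. Naive splenic CD4+ T cells of either genotype were activated through CD3 and CD28 for 3 days under pathogenic Th17 conditions. The aim was to ask how the mutation alters the transcriptome of inflammatory Th17 cells. For these conditions the paper's results name IL-6, IL-1β and IL-23. Its methods list IL-1β and IL-23 in addition to TGF-β, IL-6 and antibodies against IL-4 and IFN-γ. The methods do not state whether the knockin mice of these libraries were homozygous. The medium held 2-mercaptoethanol, a thiol reductant, for both genotypes. The knockin mice and the WT mice came from different sources, so genotype and source cannot be told apart. The methods give mice of 6 to 12 weeks as the general rule and state no age for these libraries, and no label says that the libraries came from separate animals or cultures, so that p-values measure the spread between these libraries only.

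NRF2, the protein made from *Nfe2l2*, is a transcription factor that KEAP1 binds and hands to a ubiquitin ligase, so that little of it accumulates in resting cells. Electrophiles and peroxides modify cysteines of KEAP1, and the NRF2 that then escapes binds antioxidant response elements near genes for glutathione and thioredoxin metabolism. The glutathione branch takes up cystine, couples its cysteine to glutamate and uses the product to reduce lipid and other peroxides, whereas the thioredoxin branch passes electrons from NADPH through thioredoxin reductase and thioredoxin to peroxiredoxins. T cells draw on both branches when they are activated and divide.

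Values are normalized read counts, the reads on a gene scaled by 1 factor per library. Libraries held from 17659035 to 18510878 reads on genes, and WT replicate 3 stood farthest from its group. In its pairs the median squared difference was 2.95 and 3.02 times that of counting noise, against 1.32 to 1.54 for the other pairs. Without WT replicate 3, the 4 higher and 4 lower calls among the members described here were kept. Genes were compared with limma on log2(normalized reads + 1), a scale that understates the change of low genes, and were called at an adjusted p under 0.05 (Benjamini-Hochberg over 11908 genes, those whose mean was at least 10). The T cell and Th17 marker list summed to between 73133 and 85953 normalized reads per library. By limma, 4 of its 7 measured genes were called higher in N275D cells: *Il23r* (log2 fold change 0.70), *Il17f* (0.26), *Rora* (0.26) and *Il17a* (0.23). *Cd4* (-0.27) and *Cd3e* (-0.22) were called lower. The shares over all genes tested were 24.7% higher and 26.1% lower. Markers of other cells were low but not level: B cell markers summed to between 150 and 160 normalized reads in the WT and between 214 and 273 in the N275D libraries with *Ms4a1* near 0, CD8 T and natural killer markers to 139 to 164 and 205 to 224, and myeloid markers to 91.8 to 109 and 106 to 132. For gamma delta T cells only *Sox13* could be read (18.2 to 31.4 and 35.1 to 38.5), and erythroid markers summed to 10.03 at most. By limma, 3 of 4 tested B cell markers, 2 of 3 CD8 T and natural killer markers, *Sox13* and *Cd14* were higher in N275D cells. The CD8 T and natural killer markers called were *Klrd1* (log2 fold change 0.79) and *Cd8b1* (0.58), while *Cd8a* was not called (-0.22). *Adgre1*, a macrophage marker, was lower (24.7% higher and 26.1% lower over all genes tested). The part of these cells in the results was not tested, and in bulk RNA fewer cells that express a gene cannot be told apart from less RNA per cell.

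Between genotypes, 4 of the 10 members were higher in N275D cells (*Slc7a11*, *Srxn1*, *Gpx4* and *Nfe2l2*), 4 were lower (*Txnrd1*, *Prdx1*, *Gclc* and *Txn1*) and 2 were not called (*Gclm* and *Keap1*). Over all genes tested, 24.7% were called higher, 26.1% lower and 50.9% in either direction, so calls are common in this comparison. No member reached a 2-fold change, which 3.59% of all genes did. The 3 libraries of each genotype did not overlap for any member, 5 lying higher and 5 lower, against 57.7% of all genes tested. The median log2 fold change of the members was 0.04, beside 0.00 for all genes tested, whose quartiles were -0.17 and 0.20. The genes of the pathway therefore did not move together: the cystine transporter and sulfiredoxin rose most, while the thioredoxin reductase, thioredoxin and peroxiredoxin transcripts fell.

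**Figure D1:**
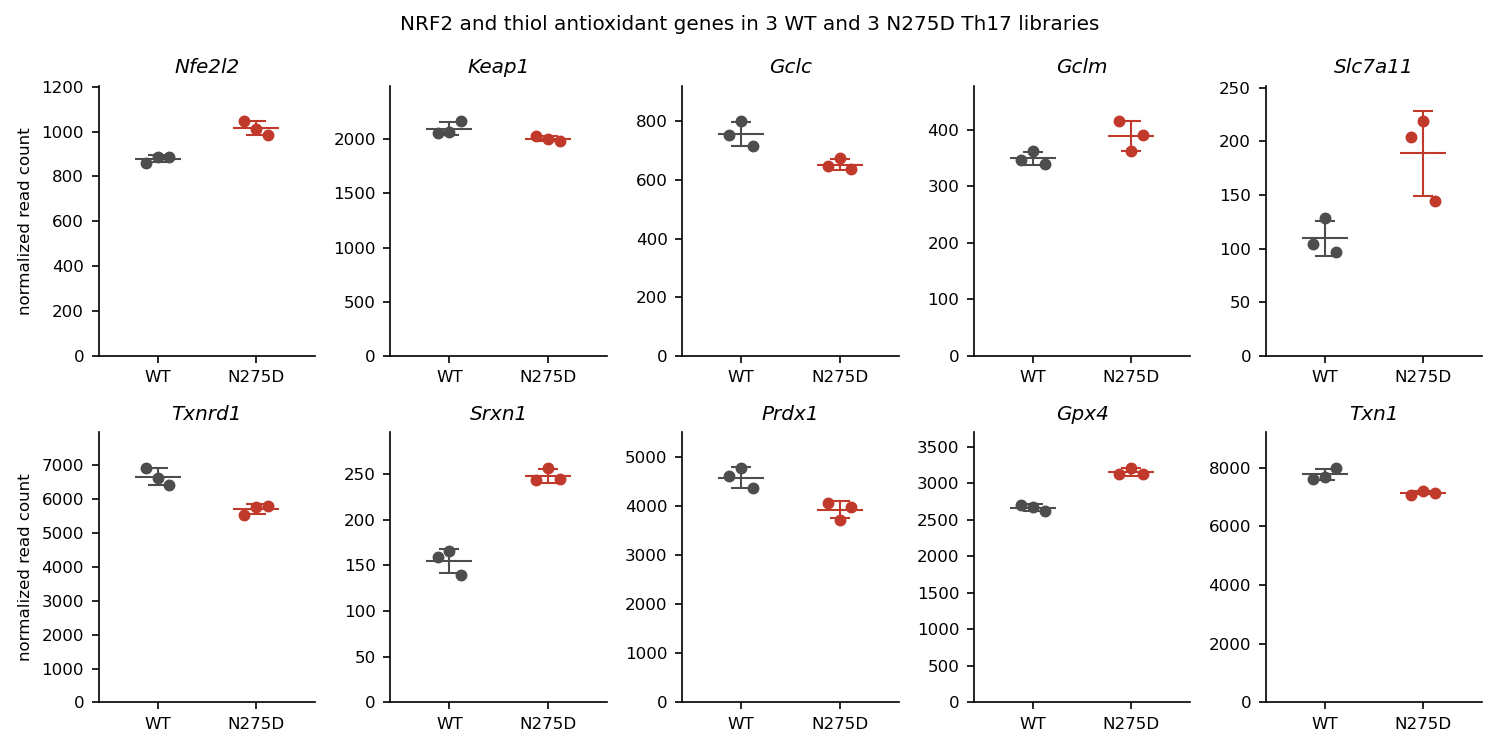
Normalized read count (y axis, from 0) of each of the 10 members in the 3 WT (grey) and 3 N275D (red) libraries, with points for libraries, a long line for the mean and bars for the SD. The genotypes do not overlap for any gene, and the widest gaps relative to the WT level are those of Slc7a11 (110 to 189) and Srxn1 (155 to 248).

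Stretches of the RefSeq GRCm38.p6 promoters, each reaching from 250 bases before to 50 bases after an annotated start, are shown because they carry the letters of 2 elements to which these genes are often linked. The core of the antioxidant response element, searched on both strands as TGACNNNGC, was found in 5 of the 9 members with a promoter sequence, against 14.0% of the 27025 genes with a promoter and 16.9% of those tested here. Counting only bases before the start, it was found in 4 of 9, against 11.5% of all genes. Those 4 stretches are written 5′ to 3′ on the strand of the gene, with the match in capitals.

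Nfe2l2, chr2:75704885-75704913, minus strand: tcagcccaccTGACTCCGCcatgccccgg
Gclm, chr3:122245412-122245441, plus strand: cgctcccgggcGCACCGTCAactctcacga
Txnrd1, chr10:82859103-82859132, plus strand: actggatttttGCTTTGTCAttctgacacg
Prdx1, chr4:116685455-116685484, plus strand: ccagggaaagcGCTGAGTCAtcccccgtag

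In *Nfe2l2* the letters lie on the strand of the gene, and in the others on the opposite strand. The *Txnrd1* match lies before the second of 3 annotated starts. The *Prdx1* match also holds TGAGTCA, the letters of an AP-1 site, a motif added after the matches were seen that is found in 2 of 9 members and 5.95% of all genes. The same 4 genes did not share a direction: *Nfe2l2* rose, *Txnrd1* and *Prdx1* fell and *Gclm* was not called. In *Srxn1*, the other gene with the core, the match starts at base 29 after the start and shares letters with an AGGTCA, and 2 AP-1 letter runs lie before the start.

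The second element, TGATGNAA, the letters of the amino acid response element at which ATF4 acts with partner factors, was found in 1 of 9 members, *Slc7a11*, against 4.51% of all genes and 2.68% of those tested. There it occurs as a pair of opposite orientation, from 66 to 40 bases before a start that lies inside the annotated span of the gene.

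Slc7a11, chr3:50443653-50443679, minus strand: TGATGCAAacctggagaatTTGCATCA

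The ROR core letters AGGTCA were found in 2 of 9 members (*Gpx4* and *Srxn1*; 18.1% of all genes). The hypoxia response element letters ACGTG and GCGTG were found in 2 and 6 of 9 members, against 21.8% and 35.2% of all genes and 29.9% and 56.6% of those tested. *Gclc* had no promoter sequence. A match is a run of letters and was not tested for binding.

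Of the regulators, *Nfe2l2* (gene number 18024, chr2:75675513-75704663) was measured at 860, 889 and 885 normalized reads in the WT libraries and at 1046, 1013 and 985 in the N275D libraries. Every N275D library lay above every WT library. The mean went from 878 ± 15.6 to 1015 ± 30.8 (SD, n = 3 each), by 0.21 ± 0.05 (standard error) on the log2 scale (adjusted p = 0.00208 by limma). *Keap1* (gene number 50868, chr9:21229730-21239332), which encodes the adaptor that holds NRF2 for degradation, was at 2057, 2067 and 2166 normalized reads in WT and at 2029, 2001 and 1982 in N275D cells. The N275D libraries lay just below the WT ones, by less than the fit could call: the log2 fold change was -0.06 ± 0.04 (standard error), with an adjusted p of 0.201 by limma. The log2 ratio of *Nfe2l2* over *Keap1* within a library, which does not depend on the library's scaling, was -1.26, -1.22 and -1.29 in WT and -0.95, -0.98 and -1.01 in N275D libraries. The transcript of the factor was thus higher relative to that of its adaptor in every N275D library, by 0.27 (standard error 0.03; exact two-sided permutation p = 0.1, the smallest that 3 against 3 libraries allow, and 0.133 adjusted over 4 ratios). These are RNA levels, and NRF2 itself is set largely by its breakdown, which was not measured.

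*Slc7a11* (gene number 26570, chr3:50364936-50499087) encodes the xCT chain of the exchanger that brings cystine into the cell. It was at 104, 128 and 97.2 normalized reads in WT and at 204, 219 and 144 in N275D cells. N275D replicate 3 lay well below the other N275D libraries but above the highest WT library. The mean rose from 110 ± 16.2 to 189 ± 39.4 (SD, n = 3 each), 1.70-fold on the fitted scale and the largest change among the members (log2 fold change 0.76, standard error 0.14, adjusted p = 0.000309 by limma). Without any library in turn the log2 fold change lay between 0.65 and 0.95. *Slc3a2*, whose product is the heavy chain that carries xCT and other transporters to the membrane, was far more abundant and rose as well, from 5637 ± 192 to 7673 ± 344 normalized reads (log2 fold change 0.44, adjusted p = 1.91e-07 by limma).

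Glutathione is built in 2 steps, and the ligase of the first has a catalytic and a modifier subunit. *Gclc* (gene number 14629, chr9:77754535-77794489), the catalytic subunit of the rate-limiting glutamate-cysteine ligase, was at 752, 800 and 716 normalized reads in WT and at 646, 675 and 636 in N275D cells. All N275D libraries lay below all WT libraries, and the mean fell by 13.7% (log2 fold change -0.21, standard error 0.06, adjusted p = 0.00562 by limma). *Gclm* (gene number 14630, chr3:122245487-122267215), the modifier subunit that raises the activity of the ligase, was at 347, 362 and 339 in WT and at 415, 363 and 390 in N275D cells. N275D replicate 2 was level with the highest WT library, and the gene was not called (log2 fold change 0.15, standard error 0.07, adjusted p = 0.0748 by limma). Left out, that library gave 0.20 with an adjusted p of 0.0457 by limma, which over all alternatives ranged from 0.0457 to 0.286.

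The subunits were also compared as a ratio within each library. The log2 ratio of *Gclc* over *Gclm* was 1.11, 1.14 and 1.08 in WT and 0.64, 0.89 and 0.70 in N275D libraries. The ranges did not overlap, and the mean difference was -0.37 (standard error 0.08, exact permutation p = 0.1, adjusted 0.133). The log2 ratio of *Slc7a11* over *Gclc*, cystine entry over glutathione synthesis, went from -2.78 ± 0.13 to -1.81 ± 0.28 (SD, n = 3 each), a difference of 0.98 (standard error 0.18) with the same exact p, and the ranges again did not overlap. *Gss*, the ligase of the last step, fell from 629 ± 22.9 to 497 ± 26.4 normalized reads (log2 fold change -0.34, adjusted p = 0.000221 by limma), the same direction as *Gclc*.

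**Figure D2:**
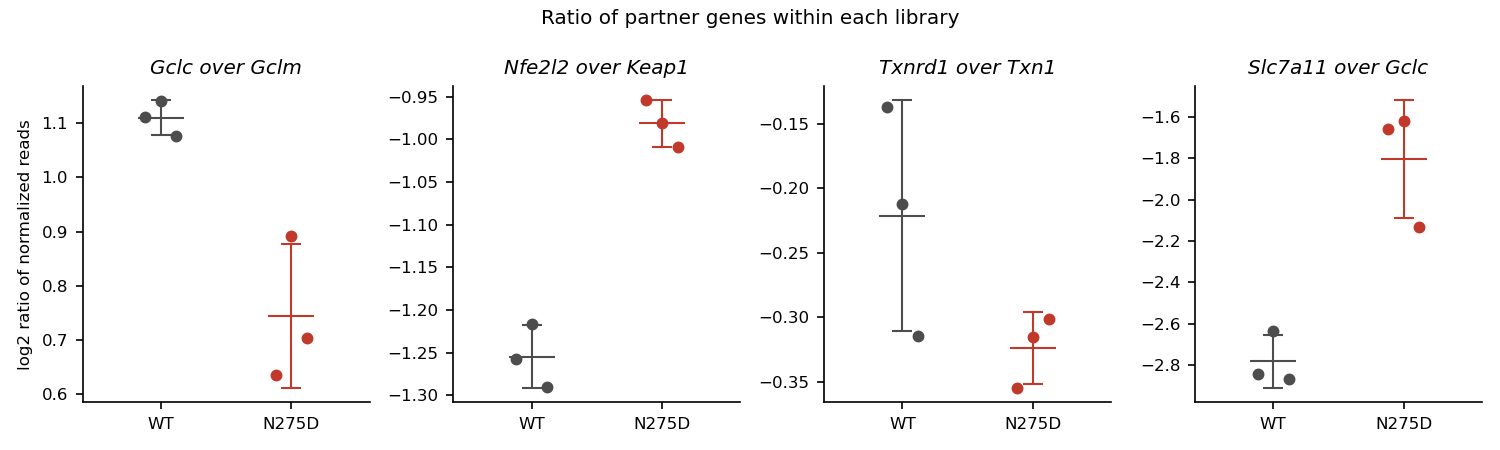
Log2 ratio of normalized reads (y axis, not from 0) for 4 pairs of genes within each of the 3 WT (grey) and 3 N275D (red) libraries, with points for libraries, a long line for the mean and bars for the SD. The genotypes separate for Gclc over Gclm, Nfe2l2 over Keap1 and Slc7a11 over Gclc, while for Txnrd1 over Txn1 the lowest WT library lies among the N275D ones.

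*Gpx4* (gene number 625249, chr10:80047166-80056439) encodes the selenoprotein that uses glutathione to reduce lipid peroxides in membranes and so guards against ferroptosis. It was at 2705, 2677 and 2623 normalized reads in WT and at 3123, 3213 and 3127 in N275D cells. The libraries of each genotype lay close together and far from the other genotype. The mean rose from 2668 ± 41.9 to 3154 ± 51.2 (SD, n = 3 each), by 18.2% (log2 fold change 0.24, standard error 0.04, adjusted p = 6.42e-05 by limma). *Gpx1*, the cytosolic glutathione peroxidase and also a selenoprotein, fell from 5165 ± 316 to 4019 ± 37.1 (log2 fold change -0.36, adjusted p = 3.69e-06 by limma).

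In the thioredoxin branch the abundant members fell. *Txnrd1* (gene number 50493, chr10:82833951-82897724), the cytosolic reductase that charges thioredoxin with electrons from NADPH, was at 6930, 6629 and 6427 normalized reads in WT and at 5537, 5773 and 5802 in N275D cells. The gap between genotypes was wider than the range within either of them (log2 fold change -0.22, standard error 0.04, adjusted p = 0.000145 by limma). *Txn1* (gene number 22166, chr4:57943373-57956411), thioredoxin itself, was at 7618, 7681 and 7994 in WT and at 7080, 7185 and 7148 in N275D cells. It had the smallest called change of the members, a fall of 8.07% (log2 fold change -0.12, standard error 0.03, adjusted p = 0.00747 by limma). The log2 ratio of *Txnrd1* over *Txn1* went from -0.22 ± 0.09 to -0.32 ± 0.03 (SD, n = 3 each), a difference of -0.10 (standard error 0.05, exact permutation p = 0.2), and the ranges overlapped.

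*Prdx1* (gene number 18477, chr4:116685599-116700000) encodes the peroxiredoxin that thioredoxin reduces after it has broken down hydrogen peroxide. It was at 4610, 4788 and 4366 normalized reads in WT and at 4073, 3731 and 3989 in N275D cells. The highest N275D library stayed below the lowest WT one, and the mean fell by 14.3% (log2 fold change -0.22, standard error 0.04, adjusted p = 0.000523 by limma). *Srxn1* (gene number 76650, chr2:152105524-152111376), sulfiredoxin, repairs peroxiredoxins that hydrogen peroxide has overoxidized, and it changed the other way. It was at 159, 165 and 139 normalized reads in WT and at 244, 257 and 244 in N275D cells. The lowest N275D library lay far above the highest WT library. The mean rose from 155 ± 13.6 to 248 ± 7.54 (SD, n = 3 each), by 60.3% (log2 fold change 0.68, standard error 0.09, adjusted p = 9.56e-06 by limma), the smallest adjusted p among the members.

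**Figure D3:**
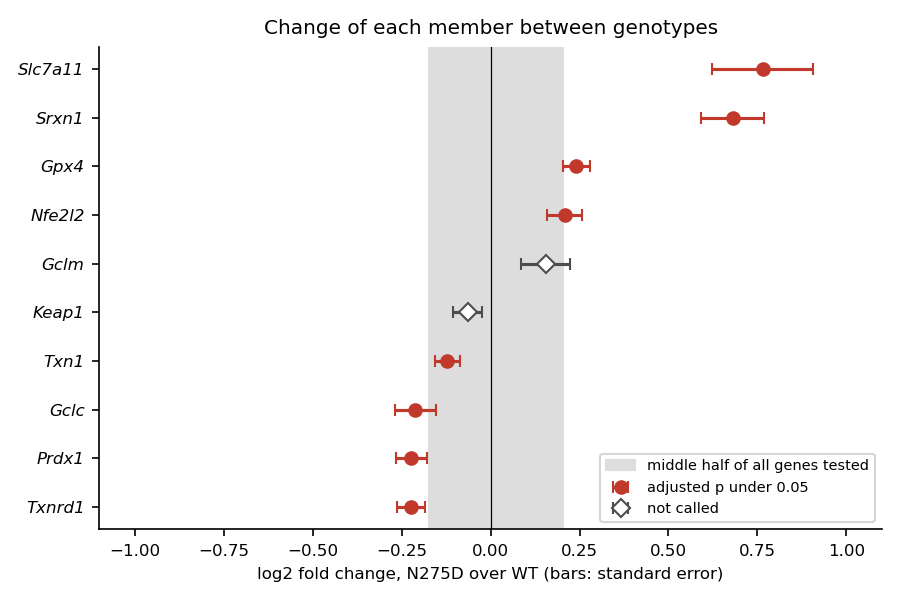
Log2 fold change of N275D over WT (x axis) for the 10 members in order of size, with bars for the standard error, filled red points for genes with an adjusted p under 0.05, open diamonds for genes not called and a grey band between the quartiles of all 11908 genes tested (-0.17 and 0.20). Slc7a11 (0.76) and Srxn1 (0.68) lie well outside the band, and Txnrd1, Prdx1, Gclc, Nfe2l2 and Gpx4 lie near its edges.

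Per kilobase of exon (GENCODE M21), *Txn1* had the highest level of the members in WT cells, at 7387 normalized reads per kilobase. *Gpx4* (2098), *Prdx1* (1803) and *Txnrd1* (1635) followed, then *Keap1* (466), *Nfe2l2* (355), *Gclc* (221), *Gclm* (62.5), *Srxn1* (55.0) and *Slc7a11* (11.1). No neighbours in this order overlapped in their 3 libraries. In N275D cells the order was the same except that *Srxn1*, at 88.2, stood above *Gclm*, at 69.7, again without overlap. Among the 11700 tested genes with a length, the members covered most of the range, from the 11.9th percentile (*Slc7a11*) to the 98.9th (*Txn1*). The changes were therefore unlike on an absolute scale, with *Slc7a11* and *Srxn1* among the low members and *Txn1*, *Txnrd1* and *Prdx1* among the high ones. Summed over the 10 members, the normalized reads made up 0.145%, 0.145% and 0.142% of all those in the WT libraries and 0.138% in each N275D library.

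Reads of some members may be shared. *Txnrd1* spans *Eid3*, a protein-coding gene on the same strand, which held 33.0 ± 3.10 normalized reads in WT and 27.6 ± 1.74 in N275D cells and was not called. *Keap1*, *Gclm*, *Slc7a11* and *Txnrd1* overlap other genes or pseudogenes annotated on the opposite strand, *Nfe2l2*, *Gclm* and *Slc7a11* overlap such genes on their own strand, and *Prdx1*, *Gpx4* and *Txn1* have 1, 2 and 1 pseudogenes named for them. Of all these overlapping genes and pseudogenes, *Eid3* alone is in the table. The counting options for strand and for reads with several matches were not given in the sources used here, so these values carry that uncertainty.

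The genes that control NRF2 were described by a list of 15 measured genes, apart from the members. By limma, 7 were higher in N275D cells and 2 lower (24.7% and 26.1% over all genes tested). The median log2 fold change was 0.07. *Sqstm1*, the p62 autophagy receptor that can draw KEAP1 away from NRF2, had by far the largest change of the list. It was at 3204, 3015 and 3133 normalized reads in WT and at 5974, 5892 and 5723 in N275D cells (log2 fold change 0.91, adjusted p = 1.85e-11 by limma). *Gsk3b*, a kinase that marks NRF2 for a KEAP1-independent ligase (0.28, adjusted p = 6.08e-05 by limma), and *Nfe2l1*, a related factor (0.24, adjusted p = 0.000212 by limma), also rose, whereas *Maff*, a small MAF partner, fell (-0.45, adjusted p = 0.000312 by limma), as did *Pgam5* (-0.17). *Bach1*, a repressor that competes with NRF2 for its sites, was at 98.3 ± 12.8 in WT and 103 ± 6.46 in N275D cells and was not called (0.07, adjusted p = 0.664 by limma). The count of higher genes was 4 without WT replicate 1 or N275D replicate 3, and it was 3 without N275D replicate 1 or 2 and also with all libraries when the prior had no trend.

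Of 24 tested NRF2 target genes outside the members, 5 were higher and 5 lower by limma (24.7% and 26.1% over all genes tested). The median log2 fold change was 0.04. *Me1*, malic enzyme and an NADPH source, was the gene that passed 2-fold, from 14.0 ± 1.86 to 43.2 ± 1.17 normalized reads (1.56, adjusted p = 1.21e-05 by limma). *Ugdh* (0.44) and *Ftl1*, a ferritin chain (0.29), were also higher. *Idh1*, another NADPH source, fell from 621 ± 29.9 to 350 ± 21.6 (-0.83, adjusted p = 4.48e-08 by limma), and *Ephx1* (-0.54) and *Pgd* of the pentose phosphate pathway (-0.20) were lower too. *Nqo1*, *Hmox1* and *Gsr*, often read as reporters of NRF2 activity, were not called. Among the members, *Slc7a11*, *Srxn1*, *Gpx4* and *Nfe2l2* were called higher, *Txnrd1*, *Prdx1*, *Gclc* and *Txn1* lower, and *Gclm* and *Keap1* were not called. *Nqo1* was barely expressed, at 14.1, 17.2 and 22.6 normalized reads in WT and at 20.0, 25.1 and 18.8 in N275D cells (0.25, adjusted p = 0.438 by limma). *Hmox1* stood at 367 ± 18.0 and 388 ± 7.07 (0.08, adjusted p = 0.317) and *Gsr*, glutathione reductase, at 1345 ± 10.8 and 1285 ± 25.1 (-0.07, adjusted p = 0.221; limma for both). At this depth, a difference in *Nqo1* smaller than its spread could not be seen. Without N275D replicate 1 or 2, or with a prior without a trend, 3 genes of the list were higher.

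Among 33 tested genes of glutathione synthesis and use, 7 were higher and 9 lower by limma (24.7% and 26.1% over all genes tested). The median was 0.02. The higher ones were led by *Mgst3*, a microsomal glutathione transferase (55.6 ± 11.3 to 108 ± 9.31 normalized reads, log2 fold change 0.96), *Chac1*, which breaks glutathione down (237 ± 24.4 to 419 ± 10.96, 0.82), and *Cth*, which makes cysteine from cystathionine (1175 ± 61.4 to 1601 ± 61.5, 0.45). The lower ones were led by *Ggct* of the gamma-glutamyl cycle (-0.59), *Cbs*, the step before *Cth* (-0.45), and *Gstt2* (-0.36). *Cbs* was low, at 58.3 ± 11.7 normalized reads in WT and 41.8 ± 2.67 in N275D cells (adjusted p = 0.0332 by limma). Among the genes named, those of glutathione breakdown and of cysteine supply lie on both sides.

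Of 24 genes of the thioredoxin and peroxiredoxin systems outside the members, 7 were higher and 5 lower by limma (24.7% and 26.1% over all genes tested). The median was 0.02. *Txnip*, which binds and inhibits thioredoxin, was at 2322, 2241 and 2224 normalized reads in WT and at 5272, 5317 and 5360 in N275D cells. It more than doubled, unlike the thioredoxin it binds (log2 fold change 1.23, adjusted p = 4.51e-13 by limma). *Sesn3*, a sestrin (0.64), and *Prdx4*, the peroxiredoxin of the endoplasmic reticulum (0.36), were higher. The mitochondrial reductase *Txnrd2* (-0.39), the mitochondrial thioredoxin *Txn2* (-0.29) and *Msra*, a methionine sulfoxide reductase (-0.34), were lower. The peroxiredoxins, looked at after their values were seen, split in the same way: besides *Prdx1*, *Prdx3* (-0.22) and *Prdx6* (-0.16) fell, *Prdx4* and *Prdx5* (0.25) rose, and *Prdx2* was not called (-0.05). Without N275D replicate 2, 4 genes of the list were higher.

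*Gpx4* and *Txnrd1* are selenoproteins, whose synthesis needs a dedicated machinery. Of 23 other tested selenoproteins and genes of that machinery, 6 were higher and 7 lower by limma (24.7% and 26.1% over all genes tested). The median was -0.04. *Pstk*, a kinase in the making of selenocysteyl-tRNA (0.47), *Selenoo* (0.40) and *Selenos* of the endoplasmic reticulum membrane (0.35) were the most raised, and *Txnrd2*, *Gpx1* and *Selenoi* (-0.26) the most lowered.

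*Slc7a11*, *Slc3a2* and *Chac1* are also known targets of ATF4, the factor of the amino acid and integrated stress responses, so its list was set beside the members. This list, like the others, was chosen with earlier results of these data known. Whether ATF4 has a part in the change of *Slc7a11* or of other members was not tested. The 19 genes of the ATF4 list do not include *Slc7a11* but do include *Slc3a2*, *Chac1* and *Atf4* itself. Of the 19, 15 were higher in N275D cells by limma, *Slc3a2*, *Chac1* and *Atf4* among them, and 0 were lower. At an unadjusted p under 0.05, 0 were lower as well. Over all genes tested, 24.7% were called higher and 26.1% lower. The median log2 fold change was 0.44. *Pycr1* of proline synthesis rose from 114 ± 10.7 to 281 ± 12.9 normalized reads (1.30, adjusted p = 1.17e-08 by limma), and *Vldlr* (1.23) and *Atf3* (1.19) also passed 2-fold. *Atf4* itself was at 8167 ± 231 and 9183 ± 203, a smaller rise (0.17, adjusted p = 0.000816 by limma). The 4 genes that were not called were *Slc7a5*, *Sesn2*, *Cebpb* and *Mthfd2*. With any library left out or any other setting tried, between 12 and 16 genes of the list were higher and 0 lower.

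**Figure D4:**
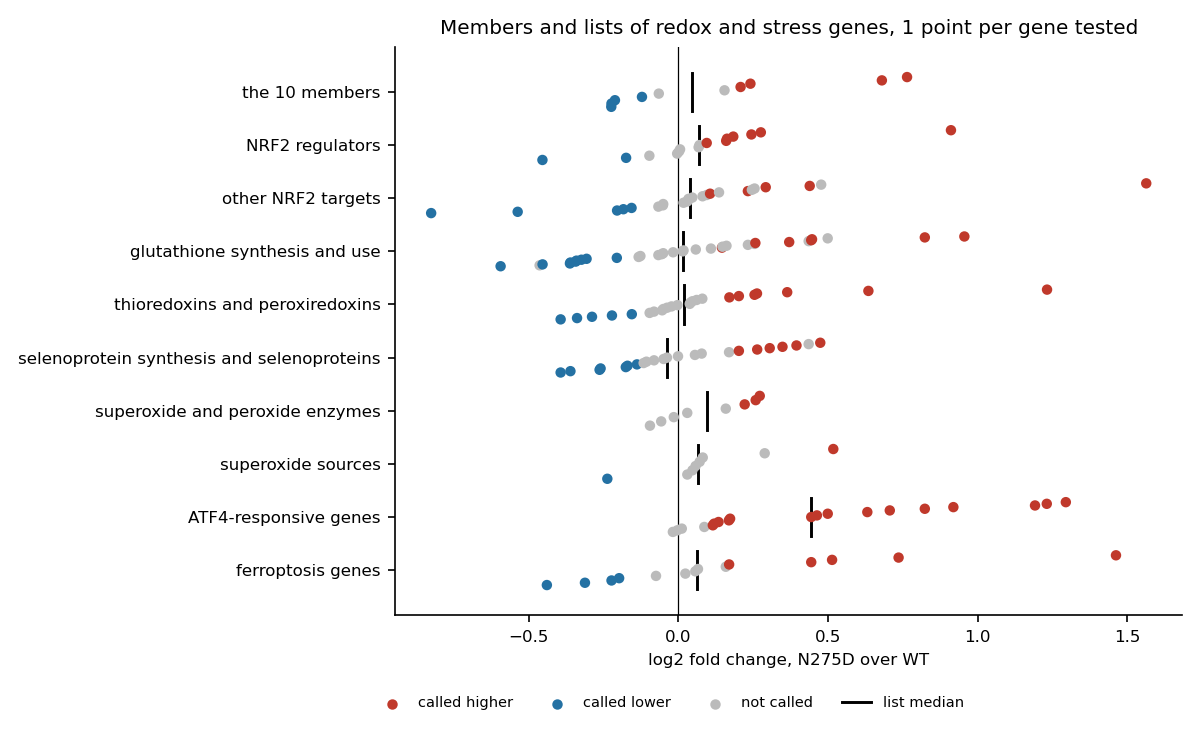
Log2 fold change of N275D over WT (x axis) for the members and 9 lists of redox and stress genes (rows), with 1 point per gene tested, red for called higher, blue for called lower, grey for not called, and a black bar at the median of each list. Called genes lie on both sides of 0 in the members and most lists, while the 15 called ATF4-responsive genes all lie to the right (median 0.44).

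Several of these genes stand in more than 1 list (15 of 209), so the lists do not count separate genes throughout. The members and the lists were chosen with earlier results of these data known, and their counts describe them without testing whether they differ from other genes.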

How the data were processed

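Poly-A RNA of pathogenic Th17 cells was analysed in 3 WT and 3 RORγt N275D libraries, named by genotype and replicate number as labelled. According to the study's methods and labels, the authors aligned reads to mm10 with STAR, counted them per gene with featureCounts and used DESeq2 for their own comparison, whereas methods and labels name different directional library kits. The deposited signal values are normalized read counts for 16244 genes, all of them (100%) whole multiples of 1 factor per library within 1e-06, about 1 read each. All per-sample columns were used. The authors also deposited averages, log2 fold changes and q-values, which were not used.

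Genes with a mean of at least 10 were tested with limma 3.58.1 (R 4.3.3; eBayes with a trended prior) on log2(value + 1) without a block and were called at an adjusted p under 0.05 (Benjamini-Hochberg over all genes), with or without an absolute log2 fold change of at least 1. The fit was tested on simulated data. Ratios of partner genes were compared by exact two-sided permutation tests. The named genes are all members, up to 3 largest increases and decreases among the called genes of each list, and *Nqo1*, *Hmox1*, *Gsr*, *Gss*, *Txnip*, *Bach1* and *Slc3a2*; others were chosen after their values were seen, among them *Gpx1* beside *Gpx4*. The members and lists were chosen with earlier results of these data known, and 1 marker of the T cell and Th17 list is not reported here and was left out of it. Coordinates and promoters are from RefSeq GRCm38.p6, which is mm10, matched by gene number for 16135 of 16244 genes. Alternatives were pseudocounts 0.1 and 10, means above 0 or of at least 100, TMM and quantile scaling, eBayes without a trend, a replicate block and leaving out each library.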

Additional observations from a re-analysis of the deposited data

How the results depend on the processing

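All 8 called members kept their call and direction under all 14 alternatives. With each library left out in turn, the log2 fold change of *Gclm* lay between 0.11 and 0.20 and passed the threshold without N275D replicate 2 (0.20). The count of genes called at 2-fold, 427, was 259 with a pseudocount of 10, 703 with every gene of a mean above 0 and 162 with a mean of at least 100. These follow from the shrinkage of low values and the number of genes tested. With the replicate number as a block, 5727 genes were called in place of 6056, 428 at 2-fold, and 4 members were higher and 4 lower. Deviations of same-numbered libraries correlated at -0.05, 0.04 and -0.08, and not every library correlated best with its own number. The deviations gave no sign of pairing by number, which with 3 libraries per genotype cannot show that there was none. Of 252 counts of called genes in the 9 lists, 234 stayed within 1.5 times the reported count and 18 did not. Count-based tests were planned and not run. With 3 libraries per genotype, no exact test of a single gene can pass 0.05, and low genes such as *Nqo1* and *Bach1* were measured with wide error.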

Other observations

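The ferroptosis genes around *Gpx4* gave calls on both sides. Of 14 tested, 5 were higher in N275D cells and 4 lower by limma (24.7% and 26.1% over all genes tested). The median log2 fold change was 0.06. Without WT replicate 1 or N275D replicate 1, with the replicate block, or with every gene of a mean above 0 tested, 2 were lower. *Mboat2*, an acyltransferase that places monounsaturated fatty acids in phospholipids, was at 115, 127 and 92.3 normalized reads in WT and at 320, 305 and 295 in N275D cells (log2 fold change 1.46, adjusted p = 1.47e-08 by limma). *Acsl4*, which activates polyunsaturated fatty acids for the same membranes, rose from 3244 ± 298 to 5390 ± 103 (SD, n = 3 each; 0.74, adjusted p = 1.28e-08 by limma). *Gch1*, the entry enzyme of tetrahydrobiopterin synthesis, rose from 332 ± 27.1 to 474 ± 23.9 (0.51, adjusted p = 2.40e-05 by limma). *Alox15*, a lipoxygenase (-0.44, adjusted p = 0.0435 by limma), *Dhodh*, a mitochondrial source of reduced ubiquinone (-0.31), and *Vkorc1l1* (-0.22) were lower.

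Genes that make superoxide, and genes of superoxide, peroxide and related redox steps, were counted as separate lists. Of 8 tested genes of the latter, *Park7* (0.27), *Ccs*, the copper chaperone of superoxide dismutase (0.26), and *Hmox2* (0.22) were higher by limma. In this list 0 were lower (0 also at an unadjusted p under 0.05), while 1 was lower without WT replicate 3. Over all genes tested, 24.7% were called higher and 26.1% lower. The dismutases *Sod1* (-0.06, adjusted p = 0.317) and *Sod2* (-0.09, adjusted p = 0.0910) and catalase, *Cat* (0.03, adjusted p = 0.691), were not called by limma. Of 8 tested subunits and regulators of superoxide-producing oxidases, 1 was higher and 1 lower by limma (24.7% and 26.1% over all genes tested). *Ncf1* rose from 104 ± 3.17 to 150 ± 12.8 normalized reads (0.52, adjusted p = 0.000528 by limma). The GTPase *Rac2* fell from 9576 ± 537 to 8119 ± 145 (-0.24, adjusted p = 0.000134 by limma). Without WT replicate 1 or WT replicate 3, 2 genes of this list were higher, and 3 were with quantile normalization. With every gene of a mean above 0 tested, 2 were lower.

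*Nnt*, the mitochondrial transhydrogenase that makes NADPH and differs between C57BL/6 substrains, was at 447 ± 9.47 normalized reads in WT and 560 ± 29.2 in N275D cells (SD, n = 3 each; log2 fold change 0.33, adjusted p = 0.000325 by limma). It was chosen after its value was seen, and its part in the results was not tested.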
